A study of Mus musculus with 9 samples.

Results

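The genes described here encode the nuclear subunits of the mitochondrial respiratory chain and of ATP synthase. They were taken as every row of the expression table whose gene symbol names an Nduf subunit (Ndufa, Ndufb, Ndufc, Ndufs or Ndufv followed by a digit), one of Sdha to Sdhd, a Uqcr gene, a Cox gene from Cox4 to Cox8 or an Atp5 gene. The rule found 84 genes of the 24346 in the table. Of these, 35 were placed in complex I, 4 in complex II, 8 in complex III, 20 in complex IV and 17 in complex V. Among the 17, Atp5s and Atp5sl were placed there by name only. Ndufa4 and its paralog Ndufa4l2 were placed with complex IV, where the protein is now known to sit despite its name. Cyc1 and Ndufab1 also encode subunits but have symbols outside the rule.

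Complexes I and II take electrons from NADH and succinate, complex III passes them to cytochrome c, complex IV hands them to oxygen, and complexes I, III and IV pump protons that drive ATP synthesis in complex V. Most subunits come from nuclear genes, and some subunits of complexes I, III and IV and part of the ATP synthase membrane domain come from mitochondrial DNA. The epithelium of the initial segment and caput epididymis is a secretory tissue whose clear cells are rich in mitochondria, and its lumen holds maturing spermatozoa, which carry testis-specific isoforms of some subunits.

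RNA was taken from the IS-caput epididymis, the initial segment with the caput, of 14-week-old mice, with 3 libraries from Nicol-/- mice, 3 from Ros1-/- mice and 3 from Nicol+/- mice. NICOL is a secreted cofactor of NELL2, which travels from the testis through the lumen and acts on the receptor ROS1 of the epididymal epithelium. Nicol-/- mice carry a deletion of the whole coding sequence on both alleles and Nicol+/- mice carry it on 1 allele, so the controls are heterozygous. Both knockouts were compared with these same controls, and Ros1+/- or wild-type libraries were not analysed here. The labels do not say whether each library is 1 animal, so p-values measure the spread between libraries.

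Levels are given as RPKM, a read density that is scaled for exon length and library depth. Estimated depth was 8189629 to 16595570 reads a library. Gm1673, the symbol of Nicol in the table, was listed at 0 in all 3 Nicol-/- libraries, at 16.6 to 19.6 RPKM in Ros1-/- and at 6.05 to 9.09 RPKM in Nicol+/-. Ros1 RNA was at 8.06 to 9.32 RPKM in Ros1-/-, 16.8 to 24.7 RPKM in Nicol-/- and 40.7 to 48.0 RPKM in Nicol+/-. Of 13 principal-cell markers examined, 10 were called lower in Nicol-/- (median log2 fold change -3.50) and 9 in Ros1-/- (median -4.22), with 0 higher, and Lcn9 was listed at 0 in all 3 Ros1-/- libraries but at 5026 to 7136 RPKM in Nicol+/-. Gpx5 and Lcn5 were the most abundant of them in both knockouts. The summed level of the 13 was 45155 to 55041 RPKM in Nicol-/- and 56915 to 61385 RPKM in Ros1-/-, against 71027 to 91289 RPKM in Nicol+/-. Fewer cells of a type and less RNA per cell cannot be told apart in such bulk samples. The ribosomal RNA precursor Rn45s was at 1922 to 2579 RPKM in Nicol-/- and 4700 to 17294 RPKM in Ros1-/-, against 592 to 1185 RPKM in Nicol+/-.

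RefSeq promoters, spanning 250 bases before to 50 bases after the start in GRCm38.p6, matched 69 of the 84 genes. The motif of NRF1, a nuclear activator of many respiratory genes, was searched on both strands as GCGCA and GCGC with any 1 base between them, and was present in 16 of 69 promoters (23.2%), against 4.78% of 27025 promoters in the RefSeq set. The core ETS motif CCGGAAG, which GABP binds, was present in 15 of 69 (21.7%, against 9.12% of all). The YY1 motif ATGGCGGC was found in 7 (10.1%, against 2.38%), the ERR motif TCAAGGTCA in 2 (2.90%, against 0.407%) and the CCAAT box in 31 (44.9%, against 37.9%). No motif contains another. The RefSeq set was not limited to genes expressed in this tissue, so these shares do not compare respiratory genes with other expressed genes. Promoters of 4 genes are shown because the results below turn on these genes, Sdha and Sdhb as complex II subunits with opposite changes and Cox6b2 and Cox6b1 as the testis isoform and its widely expressed partner. Capitals mark a match to any of the 5 motifs on either strand, and each sequence runs 5′ to 3′ on the strand of its gene.
Sdha, chr13:74350191-74350490, minus strand: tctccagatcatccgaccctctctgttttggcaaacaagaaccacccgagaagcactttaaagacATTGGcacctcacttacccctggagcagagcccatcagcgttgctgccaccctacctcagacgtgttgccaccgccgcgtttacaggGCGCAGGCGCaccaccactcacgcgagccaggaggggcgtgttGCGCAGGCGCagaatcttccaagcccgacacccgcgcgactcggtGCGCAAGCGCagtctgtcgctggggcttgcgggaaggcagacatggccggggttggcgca
Sdhb, chr4:140961021-140961320, plus strand: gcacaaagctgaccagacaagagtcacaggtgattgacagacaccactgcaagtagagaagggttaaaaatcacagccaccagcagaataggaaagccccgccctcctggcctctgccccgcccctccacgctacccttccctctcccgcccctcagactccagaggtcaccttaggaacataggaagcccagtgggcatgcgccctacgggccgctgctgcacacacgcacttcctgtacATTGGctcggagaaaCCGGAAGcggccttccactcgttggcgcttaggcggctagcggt
Cox6b2, chr7:4753045-4753344, minus strand: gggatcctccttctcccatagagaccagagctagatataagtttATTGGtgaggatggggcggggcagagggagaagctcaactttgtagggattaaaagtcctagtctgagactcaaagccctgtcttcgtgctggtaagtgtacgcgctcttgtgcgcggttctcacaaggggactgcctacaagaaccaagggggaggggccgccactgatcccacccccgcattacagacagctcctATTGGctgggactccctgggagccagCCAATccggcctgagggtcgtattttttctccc
Cox6b1, chr7:30626065-30626364, minus strand: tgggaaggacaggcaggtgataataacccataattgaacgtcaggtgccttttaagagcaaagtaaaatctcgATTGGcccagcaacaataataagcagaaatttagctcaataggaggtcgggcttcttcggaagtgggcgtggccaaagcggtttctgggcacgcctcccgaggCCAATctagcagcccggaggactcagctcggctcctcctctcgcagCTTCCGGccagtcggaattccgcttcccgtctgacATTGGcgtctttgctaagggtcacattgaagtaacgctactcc
Sdha held 3 NRF1 matches, at 98, 55 and 10 bases before the start, and a CCAAT box. Sdhb held an ETS match 7 bases after the start and a CCAAT box 9 bases before it. Cox6b1 held an ETS match 28 bases before the start with 3 CCAAT boxes, whereas Cox6b2 held 3 CCAAT boxes and none of the other 4 motifs. These are matches of letters and not shown sites of binding.

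The subunit genes were among the more abundant transcripts of this tissue. Of the 84 genes, 49 had a mean of at least 100 RPKM over the 9 libraries, and 61 ranked among the top 1000 of the 13647 genes that passed the filter on low values (1 RPKM or more in 3 or more of the 9 libraries). Cox4i1, which encodes the widely expressed form of subunit 4 of cytochrome c oxidase, had the highest mean, 839 RPKM. Next came Cox6c and Cox8a, at 795 and 670 RPKM.

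The level differed among subunits of the same complex. In complex I, Ndufa3 averaged 389 RPKM, whereas the 75 kDa iron-sulfur subunit gene Ndufs1 ranged between 19.5 and 23.6 RPKM. The 4 complex II genes lay closest together, at 109 RPKM for Sdha and 62.4 RPKM for Sdhc, a 1.74-fold range. In complex III, Uqcrh, the hinge protein, averaged 470 RPKM and Uqcrfs1, the Rieske iron-sulfur protein, 58.3 RPKM, an 8.06-fold range. Among the complex IV genes without restricted isoforms, Cox7b was lowest at 87.9 RPKM. In complex V, Atp5k, the e subunit of the membrane part, averaged 534 RPKM, and Atp5s, which encodes the coupling factor B, 8.18 RPKM. The 3 genes for the identical c-ring protein, Atp5g1, Atp5g2 and Atp5g3, averaged 353, 346 and 303 RPKM. Most genes varied little between control libraries, with a median coefficient of variation of 7.63% over the 76 genes other than restricted isoforms.

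**Figure D1:**
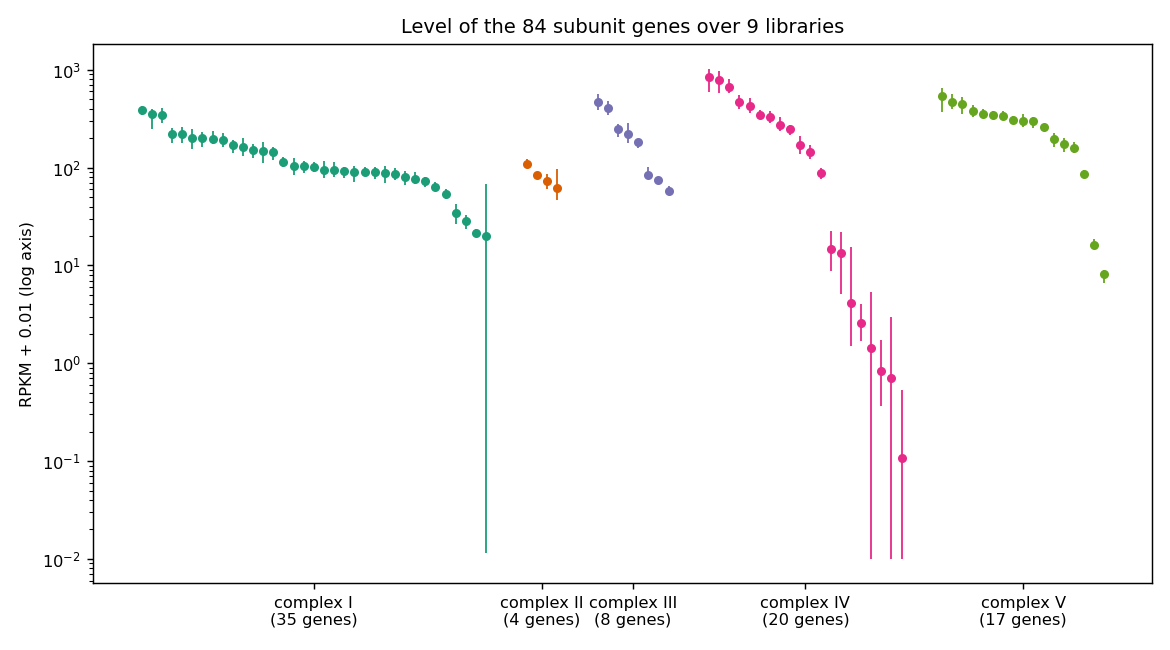
Mean level (points) and range over the 9 libraries (lines) of the 84 subunit genes, in RPKM with 0.01 added, on a log axis, ordered by mean within each complex. The 8 restricted complex IV isoforms form the low tail of complex IV, and the long line in complex I is Ndufs5.

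Ndufs5, a complex I accessory subunit, was the exception. It was listed at 68.3, 0.00983 and 15.5 RPKM in Nicol-/-, at 0.00288, 17.3 and 7.37 RPKM in Ros1-/- and at 56.8, 13.1 and 0.00149 RPKM in Nicol+/-. Its recovered reads were not whole numbers, while those of the other 83 genes were whole in every library within 0.02 of a read. Its range was wide in every group, and no direction is given for it. Sdhc was also uneven in the controls, at 46.3, 50.2 and 96.7 RPKM.

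The first comparison asked whether loss of NICOL altered these genes. Of the 82 genes tested (Cox6a2 and Cox8b did not pass the filter), 1 was higher and 0 were lower in Nicol-/- than in Nicol+/- (limma, Benjamini-Hochberg adjusted p below 0.05 over all 13647 genes). Among all genes tested, 8.95% were called higher and 11.9% lower. At an unadjusted p below 0.05, limma gave 6 subunit genes higher and 4 lower, against 17% and 18.7% of all genes tested. The study's own test gave 1 higher and 2 lower, against 10.3% and 15.2% of all genes. The median log2 fold change of the 82 genes was 0.01, against 0.00 for all genes tested. Leaving out replicate 3 of Nicol-/- gave 3 genes lower, and leaving out replicate 1 of Nicol-/-, or replicate 1 or 3 of Nicol+/-, gave 2 higher. For these fits the share of all genes is not given. Under length-corrected scaling 7 were lower and 1 higher, with a median of -0.08, against 12.9% of all genes lower and 9.43% higher. For 71 of the 82, the 95% confidence interval of the fold change lay within 1.5-fold in both directions.

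The subunit genes stood near the controls in all complexes of Nicol-/- epididymis. Their median log2 fold change as deposited was -0.01 in complex I, 0.06 in complex II, 0.07 in complex III, 0.08 in complex IV and 0.00 in complex V. The sign depended on the scaling. Of the 82 genes, 47 had a positive log2 fold change as deposited, 65 with quantile normalization and 17 with length-corrected scaling. All 3 Nicol-/- libraries lay above all 3 Nicol+/- libraries for 7 genes (8.54%) and below them for 5 (6.10%), whereas 17.5% and 20.2% of all genes tested did so. Of the complex V genes, Atp5b, the catalytic beta subunit, measured 342, 325 and 377 RPKM in Nicol-/-, against 329, 354 and 345 RPKM in Nicol+/-. These groups overlapped, and the fold change was 1.01 (95% interval 0.89 to 1.15).

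The exception was Cox6b2, which encodes the testis isoform of subunit 6B, a protein at the dimer interface of complex IV. It measured 18.9, 17.998 and 22.1 RPKM in Nicol-/-, 13.4, 8.89 and 13.6 RPKM in Ros1-/- and 11.7, 8.16 and 5.12 RPKM in Nicol+/-. Every Nicol-/- library was above every other library. The log2 fold change against Nicol+/- was 1.20 ± 0.25 (SE, n = 3 each, adjusted p = 0.010) in Nicol-/- and 0.52 ± 0.25 (adjusted p = 0.17) in Ros1-/-. The 2 knockouts differed by -0.69 (Ros1-/- against Nicol-/-, adjusted p = 0.21), so a difference between them was not shown. Cox6b2 stayed called when any 1 library was left out, with adjusted p between 0.0042 and 0.031, and under length-corrected scaling, described below, but not when the filter was dropped (adjusted p = 0.051). These values rest on 47, 44 and 93 reads in Nicol-/-, 57, 40 and 39 in Ros1-/- and 28, 35 and 21 in Nicol+/-.

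Cox6b1, the partner isoform, was far more abundant and was not called. It measured 433, 401 and 506 RPKM in Nicol-/-, 557, 516 and 497 RPKM in Ros1-/- and 419, 486 and 433 RPKM in Nicol+/-. Cox6b2 therefore made up 4.17%, 4.30% and 4.17% of the summed Cox6b RPKM in Nicol-/-, 2.35%, 1.69% and 2.67% in Ros1-/- and 2.71%, 1.65% and 1.17% in Nicol+/-.

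Markers of germ cells and spermatozoa moved in the same direction. Of 11 such genes tested, 6 were called higher in Nicol-/- and 7 in Ros1-/-, and 0 lower. The summed level of the 12 listed genes was 304, 404 and 781 RPKM in Nicol-/-, 348, 372 and 839 RPKM in Ros1-/- and 200, 132 and 144 RPKM in Nicol+/-. The protamine transcript Prm1 alone measured 66.8 to 117 RPKM in Nicol-/-, 53.2 to 125 RPKM in Ros1-/- and 20.96 to 29.5 RPKM in Nicol+/-, and the testis cytochrome c gene Cyct was at 0 in 4 of the 9 libraries. The marker sum was highest in replicate 3 of Ros1-/-, where Cox6b2 measured 13.6 RPKM. Within each group, the library with the highest marker sum also had the highest Cox6b2. In Nicol-/- this was replicate 3, with Cox6b2 at 22.1 RPKM, and in Nicol+/- replicate 1, at 11.7 RPKM. Smooth muscle and clear cell markers changed as well, with 6 of 8 and 3 of 6 tested genes called higher and 1 of each called lower in Nicol-/-. In Ros1-/- 1 smooth muscle gene was called higher and 2 lower. The smooth muscle sum was 748 to 790 RPKM in Nicol-/- and 426 to 460 RPKM in Ros1-/-, against 1554 to 1716 RPKM in Nicol+/-. Most of the control sum was Actg2, at 1037 to 1329 RPKM in Nicol+/- and 44.3 to 46.3 RPKM in Nicol-/-. The part of germ cell RNA or of these cells in the Cox6b2 result was not tested.

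The other testis isoforms of complex IV were low. Cox8c measured 2.84, 4.59 and 15.3 RPKM in Nicol-/-, 4.45, 2.50 and 2.096 RPKM in Ros1-/- and 2.23, 1.63 and 1.49 RPKM in Nicol+/-. Its log2 fold change in Nicol-/- was 1.35 ± 0.46 (SE, adjusted p = 0.065), and 0.74 without replicate 3 of Nicol-/- (adjusted p = 0.085), while it was called without replicate 1 of Nicol-/- (1.79, adjusted p = 0.027). Cox7b2 measured 1.61, 1.66 and 5.32 RPKM in Nicol-/-, 0.59, 0.80 and 0.56 RPKM in Ros1-/- and 1.77, 0 and 0.39 RPKM in Nicol+/-. Its log2 fold change in Nicol-/- was 1.17 ± 0.41 (adjusted p = 0.074), and 0.75 without replicate 3 of Nicol-/- (adjusted p = 0.18), while it was called without replicate 1 of Nicol+/- (1.58, adjusted p = 0.025). For both genes replicate 3 of Nicol-/- was the highest library, and it also had the highest germ cell marker sum of its group, 781 RPKM. Replicate 3 of Ros1-/- had a higher marker sum, 839 RPKM, and the lowest Cox8c and Cox7b2 of the Ros1-/- libraries. Of that sum, the protamine transcript Prm2 made up 430 RPKM. Prm1, Prm2, Akap4 and Gapdhs were higher there than in replicate 3 of Nicol-/-. The other listed germ cell markers were lower there, among them Ldhc at 8.59 RPKM, against 31.6 RPKM in replicate 3 of Nicol-/-. The part of germ cell RNA in these values was not tested.

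Isoforms known from heart and skeletal muscle were low. Cox7a1 measured 10.5, 10.8 and 17.3 RPKM in Nicol-/-, 22.5, 12.9 and 21.6 RPKM in Ros1-/- and 17.6, 8.82 and 9.81 RPKM in Nicol+/-, and the groups overlapped (adjusted p = 0.83 in Nicol-/- and 0.15 in Ros1-/-). Cox8b had 1, 1 and 7 reads in Nicol-/-, 2, 1 and 1 reads in Ros1-/- and 0 reads in each Nicol+/- library, and Cox6a2 had 0 to 2 reads in every library. Of 10 skeletal and cardiac muscle markers, 4 were tested and 3 of them were higher in Nicol-/-, with a summed level of 44.3 to 50.8 RPKM in Nicol-/-, 29.9 to 30.9 RPKM in Ros1-/- and 26.5 to 40.2 RPKM in Nicol+/-. The skeletal myosin genes Myh2 and Myh4 were listed at 0 throughout. Against their partners, Cox7a1 made up 7.22 ± 1.51% of the summed Cox7a1 and Cox7a2 RPKM in Nicol-/-, 8.99 ± 2.24% in Ros1-/- and 7.31 ± 2.46% in Nicol+/- (SD, n = 3 each).

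Ndufa4l2 and Cox4i2 encode isoforms known to respond to low oxygen. Ndufa4l2 measured 1.70, 1.75 and 2.83 RPKM in Nicol-/-, 2.59, 1.83 and 2.07 RPKM in Ros1-/- and 4.04, 2.93 and 3.37 RPKM in Nicol+/-. Both sets of knockout libraries lay below all controls, with log2 fold changes of -0.54 ± 0.17 (adjusted p = 0.051) in Nicol-/- and -0.49 ± 0.17 (adjusted p = 0.064) in Ros1-/-, which did not pass the threshold. Its partner Ndufa4 measured 331, 284 and 315 RPKM in Nicol-/-, 321, 296 and 327 RPKM in Ros1-/- and 378, 338 and 361 RPKM in Nicol+/-, again without overlap and without a call (adjusted p = 0.12 and 0.16). Under length-corrected scaling both genes were called lower in both knockouts. Cox4i2 stayed at or below 1.70 RPKM in every library, with overlapping groups.

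**Figure D2:**
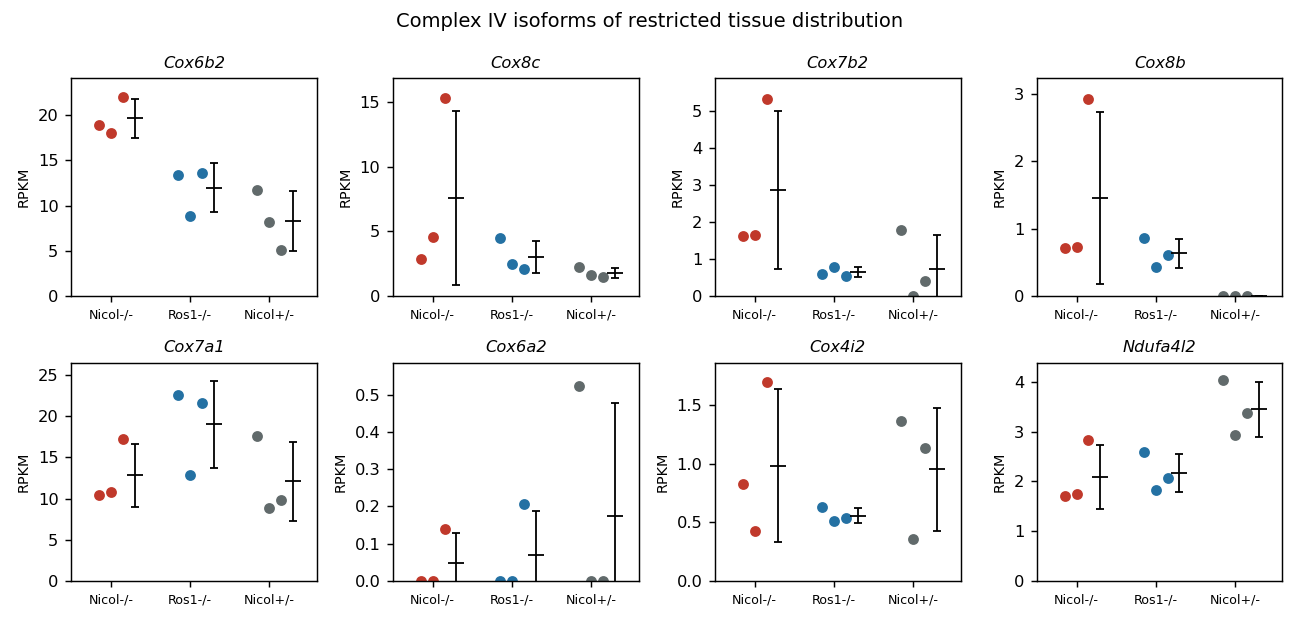
RPKM of 8 complex IV isoforms of restricted distribution in each library of Nicol-/-, Ros1-/- and Nicol+/- (points), with the mean and SD of 3 libraries (black, cropped at 0). Cox6b2 is highest in the 3 Nicol-/- libraries, Cox8c, Cox7b2 and Cox8b are highest in replicate 3 of Nicol-/-, and Ndufa4l2 is lower in both knockouts than in every Nicol+/- library.

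The second comparison asked whether loss of the receptor ROS1 altered these genes. In Ros1-/- epididymis, 8 of 82 subunit genes (9.76%) were called higher than in Nicol+/-, against 9.52% of all genes tested, and 1 (1.22%) was called lower, against 13.3% of all genes tested. The share called higher was thus close to that of all genes. The count called higher was 0 without replicate 1 of Ros1-/-, 2 without replicate 2 and 3 without replicate 3, and 2 and 1 without replicates 1 and 3 of Nicol+/-. It was 3 without replicate 1 of Nicol-/- and 17 without replicate 3 of Nicol-/-, which enter only through the shared spread. The share of all genes called in these fits is not given, so these counts cannot be set against the 9.52%. At an unadjusted p below 0.05 in all 9 libraries, limma gave 22 of 82 higher and 2 lower, against 17.5% and 19.1% of all genes tested. The study's own test gave 24 higher and 3 lower, against 16.5% and 19% of all genes.

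The subunit genes shifted together by a small amount as deposited. Their median log2 fold change in Ros1-/- was 0.15 (1.11-fold), against 0.01 for all genes tested, but it was -0.03 under a scaling that takes out each library's trend with transcript length. With that scaling, chosen after seeing the data, 1 subunit gene was called higher and 7 lower, in place of 8 higher and 1 lower, against 8.89% of all genes higher and 13.4% lower with the same scaling. As deposited, 64 of 82 genes (78.0%) had a positive log2 fold change, against 52.0% of all genes tested, and with length-corrected scaling 29 of 82 did. All 3 Ros1-/- libraries lay above all 3 Nicol+/- libraries for 30 genes (36.6%, against 22.5% of all genes tested) and below them for 3 (3.66%, against 23.8%).

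The shift was also visible in single libraries. The median deviation of the 82 genes from the Nicol+/- mean, on the log2 scale, was 0.22, 0.14 and 0.12 in Ros1-/-, against -0.03, 0.07 and -0.04 in Nicol+/-. It was -0.01, -0.08 and 0.18 in Nicol-/-, so replicate 3 of Nicol-/- lay with the Ros1-/- libraries. The summed level of all 84 genes was 17437 ± 684 RPKM in Ros1-/-, 15964 ± 1567 RPKM in Nicol-/- libraries and 15341 ± 790 RPKM in Nicol+/- libraries (SD, n = 3 each). Clear cell markers, from the mitochondria-rich cells, summed to 145 to 159 RPKM in Ros1-/-, 146 to 175 RPKM in Nicol-/- and 125 to 135 RPKM in Nicol+/-. The list was mixed in Ros1-/-, with 3 of 6 tested genes called higher and 1 lower. Atp6v0d2 was at 20.1 to 25.3 RPKM in Ros1-/-, against 37.5 to 43.5 RPKM in Nicol+/-. The part of clear cells in the shift was not tested.

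**Figure D3:**
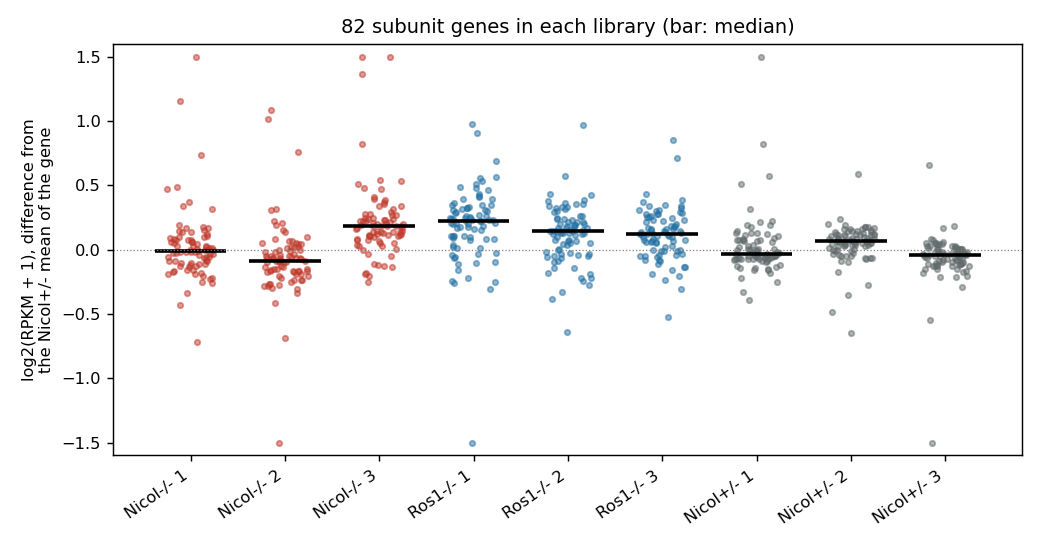
Difference of log2(RPKM + 1) from the Nicol+/- mean of the same gene for the 82 subunit genes tested in each library (points) with their median (bar). Medians are 0.12 to 0.22 in Ros1-/- with the deposited scaling, whereas the median log2 fold change is -0.03 with length-corrected scaling, and 7 points beyond 1.5 are drawn at the edge.

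The part of transcript length in this shift was not tested. The subunit transcripts were short, with a median effective length (the length recovered from the ratio of normalized count to RPKM) of 434 bases, against 2428 bases for all genes tested, and 64 of 82 were at most 1000 bases. Across the 82 genes, Spearman's rho between effective length and log2 fold change was -0.47 in Ros1-/- and -0.31 in Nicol-/-, and across all 13647 genes it was -0.26 and -0.18. Genes of 1 set of libraries share depth and scaling, so these values describe the libraries and have no p.

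Medians by length are given here as a description. The 22 subunit genes of at most 300 bases had a median log2 fold change of 0.24, and 232 other genes of that length had 0.35. For 300 to 400 bases the medians were 0.26 over 15 subunit genes and 0.30 over 172 other genes, for 400 to 600 bases 0.17 and 0.21, and for 600 to 1000 bases 0.18 and 0.16. Other genes with a mean of at least 50 RPKM, in the range of most subunit genes, had medians of 0.41 (111 genes) up to 300 bases, 0.33 (63 genes) for 300 to 400 bases and 0.26 (134 genes) for 400 to 600 bases. For 1000 to 1500 bases they were 0.06 and 0.09, and beyond 1500 bases -0.01 and -0.03. In Nicol-/-, subunit genes of at most 300 bases had a median of 0.06, against 0.23 for other genes of that length.

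**Figure D4:**
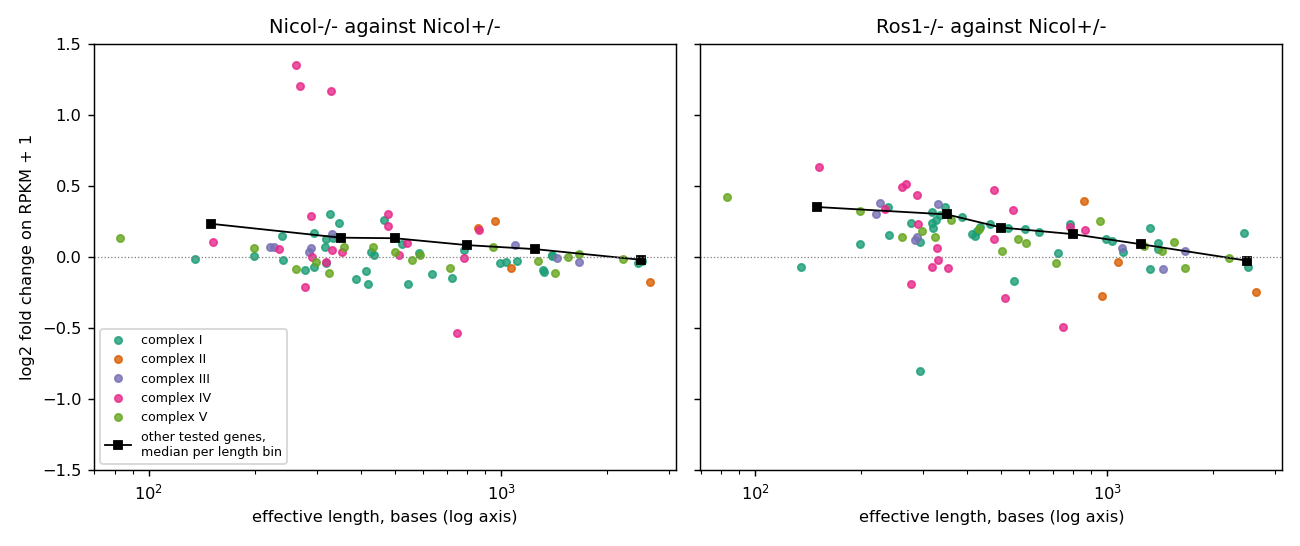
Log2 fold change of each subunit gene against its effective length in bases (log axis), coloured by complex, for Nicol-/- (left) and Ros1-/- (right) against Nicol+/-, with the median of other tested genes in 6 length bins (black squares, the last for all genes beyond 1500 bases). With the deposited scaling, short genes are higher in Ros1-/- both among subunits and among other genes, and in Nicol-/- most short subunit genes lie below the black squares.

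The calls least tied to scaling in Ros1-/- were in complex II, where 2 subunits were called in opposite directions. Sdhb, the iron-sulfur subunit of succinate dehydrogenase, measured 85.9, 81.4 and 83.3 RPKM in Ros1-/-, against 60.8, 65.7 and 63.7 RPKM in Nicol+/-. All Ros1-/- libraries were above all controls, with a log2 fold change of 0.39 ± 0.09 (SE, n = 3 each, adjusted p = 0.015). Sdha, the flavoprotein subunit that holds the succinate site, measured 99.8, 100.9 and 101.4 RPKM in Ros1-/-, against 117, 123 and 120 RPKM in Nicol+/-. All Ros1-/- libraries were below all controls, with a log2 fold change of -0.25 ± 0.06 (adjusted p = 0.021).

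Both calls were kept under length-corrected scaling, at 0.25 for Sdhb (adjusted p = 0.025) and -0.25 for Sdha (adjusted p = 0.013). Sdhb lost its call without replicate 1 of Ros1-/- (adjusted p = 0.064). Sdha kept its direction but lost its call when any 1 Ros1-/- library, or replicate 2 or 3 of Nicol+/-, was left out, with adjusted p between 0.056 and 0.085. In Nicol-/- the same 2 genes measured 66.3, 70.4 and 83.8 RPKM for Sdhb and 102, 110 and 106 RPKM for Sdha. These lay on the same sides of all controls as in Ros1-/- and were not called (log2 fold change 0.20, adjusted p = 0.14, and -0.18, adjusted p = 0.073), although Sdha was with length-corrected scaling (adjusted p = 0.046).

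The ratio of Sdhb to Sdha RPKM was 0.861, 0.807 and 0.822 in Ros1-/-, 0.648, 0.643 and 0.792 in Nicol-/- and 0.518, 0.536 and 0.533 in Nicol+/-. Every knockout library was above every control library. These ratios use the deposited values, and the effective lengths were 858 bases for Sdhb and 2644 bases for Sdha. With length-corrected scaling the log2 fold change of Sdhb in Nicol-/- was 0.13 (limma, adjusted p = 0.17). The part of transcript length in the ratio was not tested. The membrane anchor gene Sdhd was not called and measured 87.3, 83.9 and 81.9 RPKM in Ros1-/- and 81.5, 77.2 and 88.3 RPKM in Nicol-/-, against 84.9, 86.8 and 88.3 RPKM in Nicol+/- (fold change 0.97, 95% interval 0.87 to 1.09, in Ros1-/-).

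In complex IV, 3 genes for small or regulatory subunits were called higher in Ros1-/-, and none of these 3 was called under length-corrected scaling. Cox4i1 measured 1021, 1030 and 840 RPKM in Ros1-/-, against 722, 766 and 597 RPKM in Nicol+/-, without overlap (log2 fold change 0.47 ± 0.15, adjusted p = 0.046). Cox7c measured 329, 321 and 299 RPKM in Ros1-/-, against 238, 272 and 240 RPKM in Nicol+/- (0.34 ± 0.08, adjusted p = 0.021). Cox7a2 measured 212, 186 and 178 RPKM in Ros1-/-, against 158, 161 and 136 RPKM in Nicol+/- (0.33 ± 0.11, adjusted p = 0.049). The groups of both genes did not overlap. Cox6c, at 975, 898 and 824 RPKM in Ros1-/- and 655, 762 and 585 RPKM in Nicol+/-, lay just outside the threshold (adjusted p = 0.052), while Cox8a overlapped between groups (fold change 0.98, 95% interval 0.80 to 1.22).

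In complexes I and III, 4 accessory subunit genes were called higher in Ros1-/-, also without a call under length-corrected scaling. Ndufb4 measured 173, 176 and 166 RPKM in Ros1-/-, against 128, 151 and 125 RPKM in Nicol+/- (log2 fold change 0.35 ± 0.10, adjusted p = 0.041). Ndufa6 measured 260, 234 and 252 RPKM in Ros1-/-, against 189, 220 and 178 RPKM in Nicol+/- (0.35 ± 0.11, adjusted p = 0.043). Ndufa5 measured 104, 93.4 and 114 RPKM in Ros1-/-, against 81.1, 91.6 and 79.7 RPKM in Nicol+/- (0.30 ± 0.09, adjusted p = 0.044). For these 3 genes, and for Uqcrh at 566, 511 and 522 RPKM in Ros1-/- against 386, 457 and 394 RPKM in Nicol+/- (0.37 ± 0.11, adjusted p = 0.041), the groups did not overlap. Their effective lengths were 239 to 345 bases.

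**Figure D5:**
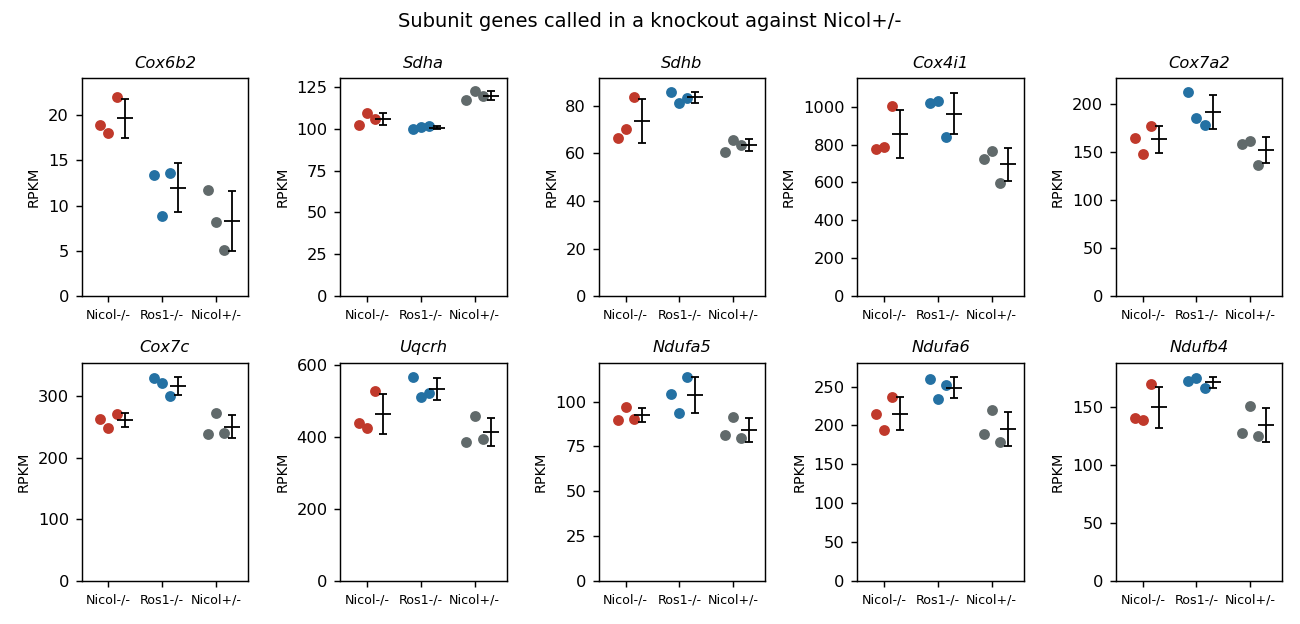
RPKM of the 10 subunit genes called in a knockout against Nicol+/-, in each library of Nicol-/-, Ros1-/- and Nicol+/- (points), with the mean and SD of 3 libraries (black). Cox6b2 stands apart in Nicol-/-, Sdha is below and Sdhb above all controls in both knockouts, and the other 7 genes are higher in the 3 Ros1-/- libraries than in Nicol+/- but are not called with length-corrected scaling.

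Values by class are a description, and the differences between classes were not tested. In complex I, the 28 accessory genes had a median log2 fold change of 0.20 in Ros1-/- (26 positive), and the 7 core genes, which carry the flavin and iron-sulfur clusters, 0.03 (4 positive). In complex V, all 10 genes of the membrane part and stalk were positive, with a median of 0.14. The 5 genes of the F1 catalytic part had a median of -0.01 (2 positive). Of these, Atp5e averaged 530 ± 31.7 RPKM in Ros1-/- and 424 ± 46.8 RPKM in Nicol+/- (SD, n = 3 each), without overlap (log2 fold change 0.32, adjusted p = 0.078), and Atp5c1 averaged 175 ± 7.87 RPKM in Ros1-/- and 147 ± 5.83 RPKM in Nicol+/-, also without overlap (0.25, adjusted p = 0.063). Atp5b had a fold change of 0.95 (95% interval 0.83 to 1.08). None of the complex V genes was called. Atp5k had the largest value of them, 0.42 ± 0.18 (adjusted p = 0.12). With length-corrected scaling the medians of the accessory, core and membrane part classes all lay below 0, and Atp5k was at 0.02. The part of transcript length in these differences between classes was not tested.

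The third comparison set Ros1-/- against Nicol-/- directly. By limma, 0 of 82 subunit genes were called in either direction, against 0.403% of all genes higher and 1.15% lower. At an unadjusted p below 0.05, limma gave 12 higher and 2 lower, against 7.55% and 9.53% of all genes, and the study's own test 8 higher and 2 lower, against 7.39% and 7.29%. The median log2 fold change was 0.13 over the 82 genes, against 0.01 for all genes tested, and 0.04 under length-corrected scaling. The Ros1-/- libraries all lay above the Nicol-/- libraries for 12 genes (14.6%, against 11.6% of all) and below them for 4 (4.88%, against 12%). Leaving out replicate 3 of Nicol-/- gave 2 genes higher and leaving out replicate 3 of Nicol+/- gave 1 lower, with no share of all genes given for these fits. For 69 of 82 genes the 95% interval of the fold change lay within 1.5-fold.

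Among subunit genes with a mean above 100 RPKM, the 3 with the highest positive log2 fold changes encode accessory subunits of complex I. Ndufa2 measured 248, 231 and 232 RPKM in Ros1-/-, against 154, 161 and 215 RPKM in Nicol-/- (log2 fold change 0.44 ± 0.12, adjusted p = 0.12). Ndufb10 measured 193, 189 and 185 RPKM in Ros1-/-, against 150, 141 and 158 RPKM in Nicol-/- (0.34 ± 0.08, adjusted p = 0.070). Ndufa1 measured 406, 404 and 353 RPKM in Ros1-/-, against 291, 286 and 350 RPKM in Nicol-/- (0.33 ± 0.12, adjusted p = 0.21). The libraries of the 2 knockouts did not overlap for these 3 genes, and none passed the threshold. Sdhc was lower without overlap, at 51.3, 46.5 and 52.6 RPKM in Ros1-/-, against 79.0, 63.7 and 75.8 RPKM in Nicol-/- (-0.53 ± 0.24, adjusted p = 0.30), with the uneven controls noted above.

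Genes that work with these subunits were counted in the same fit, in which 8.95% of all genes tested were higher and 11.9% lower in Nicol-/-, and 9.52% higher and 13.3% lower in Ros1-/-. In complex IV assembly, 2 of 20 genes were lower in Nicol-/- and 3 in Ros1-/-, with 0 and 2 higher. Cox15, which makes the heme A of cytochrome c oxidase, measured 13.3, 9.81 and 14.5 RPKM in Nicol-/-, 13.9, 12.4 and 14.2 RPKM in Ros1-/- and 40.3, 37.7 and 59.4 RPKM in Nicol+/-. The knockouts were far below the controls, with log2 fold changes of -1.78 ± 0.18 (adjusted p = 0.00023) in Nicol-/- and -1.67 ± 0.18 (adjusted p = 0.00028) in Ros1-/-. Cox10, which makes the heme O precursor, measured 4.70, 4.84 and 6.25 RPKM in Nicol-/-, 4.87, 4.90 and 4.72 RPKM in Ros1-/- and 7.53, 6.51 and 8.12 RPKM in Nicol+/- (-0.43, adjusted p = 0.032, and -0.52, adjusted p = 0.013). Both genes of heme A synthesis were thus lower in both knockouts, also with quantile, median-ratio and length-corrected scaling.

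Cox17, the copper chaperone of cytochrome c oxidase, measured 288, 272 and 273 RPKM in Ros1-/-, 192, 172 and 172 RPKM in Nicol-/- libraries and 156, 189 and 145 RPKM in Nicol+/-. Its log2 fold change was 0.77 ± 0.11 in Ros1-/- against Nicol+/- (adjusted p = 0.0010) and 0.63 in Ros1-/- against Nicol-/- (adjusted p = 0.026), so the knockouts differed. Under length-corrected scaling these values were 0.46 and 0.49, and both calls were kept.

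Among 14 complex I assembly genes, Acad9 was lower in Nicol-/- (12.2, 11.7 and 13.5 RPKM, against 16.4, 16.4 and 18.9 RPKM in Nicol+/-, adjusted p = 0.0077), and Ecsit and Foxred1 were higher in Ros1-/-. Of 10 assembly genes of complexes II and III, Uqcc3 was lower in Nicol-/-, a call lost with quantile normalization. Sdhaf1, which helps load the iron-sulfur clusters of SDHB, was higher in Ros1-/-, at 36.0, 34.1 and 34.7 RPKM, against 21.5, 24.2 and 24.98 RPKM in Nicol+/- (log2 fold change 0.55 ± 0.12, adjusted p = 0.013), whereas Sdhaf3 was lower. Of 4 ATP synthase factors, Atpif1, the inhibitor of ATP hydrolysis, was higher in Ros1-/- (log2 fold change 0.38, adjusted p = 0.036).

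For the citric acid cycle and pyruvate dehydrogenase, Nicol-/- had 2 lower and 2 higher genes of 19, and Ros1-/- had 2 lower and 3 higher. Idh2, the mitochondrial NADP-dependent isocitrate dehydrogenase, measured 99.2, 107 and 121 RPKM in Nicol-/-, 103, 106 and 97.8 RPKM in Ros1-/- and 64.8, 64.8 and 50.1 RPKM in Nicol+/-, for log2 fold changes of 0.86 ± 0.11 (adjusted p = 0.0011) and 0.77 ± 0.11 (adjusted p = 0.0017). Suclg2 was also higher in both. Ogdh and Dlat, the first subunit of oxoglutarate dehydrogenase and the core of pyruvate dehydrogenase, were lower in both, although in Nicol-/- neither was called with quantile normalization and Ogdh was not called with length-corrected scaling. Of 12 carriers tested, cytochrome c (Cycs) and Vdac2 were lower in Nicol-/- (log2 fold changes -0.35 and -0.38, adjusted p = 0.018 and 0.031) and Gpd2 was lower in Ros1-/- (-0.46, adjusted p = 0.021). Vdac2 in Ros1-/- was at -0.31 (adjusted p = 0.055), and was called lower there with quantile normalization (adjusted p = 0.029) and length-corrected scaling (adjusted p = 0.012).

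More glycolytic genes were higher than lower in both knockouts. Nicol-/- had 9 higher genes and 1 lower of 19, and Ros1-/- had 5 higher and 3 lower, beside 8.95% and 9.52% of all genes tested higher and 11.9% and 13.3% lower. With quantile normalization Nicol-/- had 14 higher and 1 lower, beside 10.5% of all genes in each direction, and Ros1-/- had 8 higher and 2 lower, beside 12% and 11.4%. Ldha, a lactate dehydrogenase subunit, measured 140, 172 and 181 RPKM in Nicol-/-, 154, 156 and 158 RPKM in Ros1-/- and 102, 118 and 93.8 RPKM in Nicol+/- (0.64, adjusted p = 0.0054, and 0.58, adjusted p = 0.0074). The lactate transporter genes Slc16a1 and Slc16a3 were higher in both knockouts, and Hk2, a hexokinase, was lower in both, at 19.4, 20.3 and 13.5 RPKM in Nicol-/- libraries and 17.97, 22.3 and 20.8 RPKM in Ros1-/-, against 31.2, 34.3 and 43.6 RPKM in Nicol+/-. The median log2 fold change of the 19 genes was 0.38 in Nicol-/- and 0.32 in Ros1-/-, and 0.33 and 0.22 under length-corrected scaling.

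Of 77 mitochondrial ribosomal protein genes, Nicol-/- had 4 lower and 0 higher, and Ros1-/- had 3 lower and 5 higher, all below the shares of all genes given above. Quantile normalization changed the count called higher to 4 in Nicol-/-, beside 10.5% of all genes, and to 15 in Ros1-/-, above the 12% of all genes. Their median log2 fold change was -0.01 in Nicol-/- and 0.16 in Ros1-/-, close to those of the respiratory subunits, and 0.02 in Ros1-/- under length-corrected scaling, with which 4 were lower and 0 higher. That scaling gave 11 lower and 0 higher in Nicol-/-, beside 12.9% of all genes lower and 9.43% higher. In Ros1-/- it called 13.4% of all genes lower and 8.89% higher. Mrpl37 stood apart, at 23.4, 25.6 and 29.0 RPKM in Nicol-/-, 24.2, 23.3 and 23.9 RPKM in Ros1-/- and 281, 297 and 421 RPKM in Nicol+/-, a log2 fold change of -3.61 ± 0.14 in Nicol-/- (adjusted p = 6.5e-07) and -3.73 ± 0.14 in Ros1-/- (adjusted p = 4.9e-07). Reads shared with a neighbouring or related gene were not tested for.

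Of 14 regulators of mitochondrial gene expression, Esrrb, an estrogen-related receptor, was called higher in both knockouts, at 3.67, 5.01 and 4.604 RPKM in Nicol-/- libraries and 3.24, 3.43 and 4.22 RPKM in Ros1-/-, against 0.819, 2.095 and 1.448 RPKM in Nicol+/- (adjusted p = 0.0036 and 0.0086). Esrrg was higher in Ros1-/-. Gabpb1, a subunit of GABP, was lower in both, with log2 fold changes of -0.45 (adjusted p = 0.016) in Nicol-/- and -0.35 (adjusted p = 0.037) in Ros1-/-, where the call was lost with quantile normalization (adjusted p = 0.093). Nrf1 measured 5.32, 6.26 and 5.28 RPKM in Nicol-/- libraries and 5.66, 5.11 and 5.38 RPKM in Ros1-/-, against 6.02, 6.57 and 6.20 RPKM in Nicol+/-, and was not called. Subunits encoded by mitochondrial DNA were not analysed here.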

How the data were processed

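Total mRNA of 9 libraries was sequenced as single-ended reads from a stranded kit. Per the labels and methods, the authors mapped reads to mm10 with TopHat2 2.1.1 and made RPKM values with Cufflinks 2.2.1. The sources used here name neither the annotation nor a rule for reads that matched several places. Analysed were the deposited FPKM values, scaled between libraries by the authors and equal to RPKM for single-ended reads. The deposited normalized counts, a signal scaled by the authors, were used only to estimate depth, reads per gene and effective length, and 83 of the 84 genes gave whole reads within 0.02.

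log2(RPKM + 1) was fitted with limma 3.58.1 (R 4.3.3) with a mean-variance trend over 9 libraries and 3 group means (6 residual degrees of freedom), for the 13647 genes that reached 1 RPKM in 3 or more libraries. Genes with Benjamini-Hochberg adjusted p below 0.05 were called. Fold changes are on this scale, which understates changes of low genes. Intervals cover 95%. The fit was tested on simulated data.

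Genes were named when called, among the 6 largest changes in either direction, highest or lowest in a complex, or in a family with restricted isoforms, and from other lists up to 6 genes by smallest p. Members and lists were chosen with earlier results of these data known. Replicate numbers were not taken to pair libraries, since the labels give only the numbers. Correlations of deviations from group means were 0.194, 0.103 and 0.243 for same-numbered Nicol-/- and Nicol+/- libraries. Unlike-numbered libraries of these groups lay between -0.198 and 0.060. Unlike-numbered Nicol-/- replicate 1 and Ros1-/- replicate 2 were at 0.242, and same-numbered Nicol-/- replicate 1 and Ros1-/- replicate 1 at -0.091. A pairing was thus not shown. Alternatives were another pseudocount, filter, scaling, variance model, set of libraries and block, the study's own unadjusted test and each library left out. Figures were drawn with matplotlib 3.10.9.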

Additional observations from a re-analysis of the deposited data

Results flagged for a closer look

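Ndufb10, a complex I accessory subunit gene, was picked out because every Nicol-/- library lay below and every Ros1-/- library above all Nicol+/- libraries. It measured 150, 141 and 158 RPKM in Nicol-/-, 193, 189 and 185 RPKM in Ros1-/- and 161, 184 and 167 RPKM in Nicol+/-. The difference between the knockouts, Ros1-/- against Nicol-/-, was 0.34 on the log2 scale and did not pass the threshold (limma, adjusted p = 0.070, and 0.056 to 0.25 when 1 library was left out). Under length-corrected scaling it was 0.22 (adjusted p = 0.11), and Ros1-/- was then not above Nicol+/- (-0.09). With the same scaling Ndufb10 was called lower in Nicol-/- than in Nicol+/- (log2 fold change -0.31, limma, adjusted p = 0.0097).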

How the results depend on the processing

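Cox6b2, Sdhb and Sdha kept their direction under every alternative run. Without the filter, 1 subunit gene was lower and 0 higher in Nicol-/-, and 2 were higher in Ros1-/-. With quantile normalization, 1 was lower and 5 higher in Nicol-/-, beside 10.5% of all genes in each direction. With the same normalization 14 were higher in Ros1-/-, beside 12% of all genes. With only the 6 libraries compared, 2 were lower and 13 higher in Ros1-/-. By the study's own unadjusted test, 2 were lower in Nicol-/-, 3 lower and 24 higher in Ros1-/-, and 2 lower and 8 higher in Ros1-/- against Nicol-/-. With length-corrected scaling, chosen after seeing the data, 7 were lower in Nicol-/-, 7 lower and 1 higher in Ros1-/-, and the median log2 fold change in Ros1-/- was -0.031.

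With a replicate block over the 9 libraries, 2 subunit genes were higher in Ros1-/-. A pairing by replicate number was not shown. The replicate block over the 6 Nicol-/- and Nicol+/- libraries left 0 lower and 1 higher and changed no other call among the genes named.

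Leaving out 1 library at a time, the count lower ranged from 0 to 3 in Nicol-/-, 0 to 2 in Ros1-/- and 0 to 1 between knockouts, and the count higher from 1 to 2, 0 to 17 and 0 to 2. The median ranged from -0.05 to 0.08 in Nicol-/-, 0.13 to 0.18 in Ros1-/- and 0.08 to 0.19 between knockouts. The cause of these changes was not tested. Counts without the filter, with 6 libraries, with a block or with 1 library left out have no share of all genes beside them. Count models were not run, since whole reads were not recovered for all genes. Depth limits the low isoforms, as 7 of the 8 had under 20 reads in some library.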
